A study of Mus musculus with 6 samples.

Results

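The 9 genes described here, of 22180 measured in mouse mammary tumours, encode sensors of foreign or misplaced nucleic acids and an adaptor that serves some of them. They were Ddx58 (RIG-I), Ifih1 (MDA5), Dhx58 (LGP2), Ddx60, Mavs, Zbp1, Eif2ak2 (PKR), Tlr3 and Tlr7. A member was taken by its symbol in the annotation of the array, and each of the 9 had 1 probe set that carried its symbol and no other. The tumours came from 3 SG-/- mice, which lack serglycin, and 3 SG+/- mice, which carry 1 intact copy of its gene. Serglycin is a proteoglycan of secretory granules. All 6 mice were PyMT+, that is, they carried the gene for the polyoma virus middle T oncoprotein, which drives mammary tumours. Heterozygous mice were the comparison, and no tumour with both copies of the gene was analysed here. The sources used here give no transgene promoter, strain or age of the mice. Whole tumour tissue was measured, 1 array per mouse, and the replicates of a genotype are separate mice numbered in the order of deposition. The study asked which genes differ in tumours when serglycin is lost.

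RIG-I and MDA5 are helicases of the cytosol that bind viral RNA and then signal through MAVS, an adaptor protein on mitochondria. The signal switches on interferon genes, and the secreted interferon in turn raises many of the sensors themselves. Endosomes are watched by Toll-like receptors, among them TLR3 for RNA duplexes and TLR7 for RNA single strands. PKR stops translation when it binds RNA duplexes, and ZBP1 binds nucleic acids in the Z conformation and can start cell death. In tumours such sensors can also meet nucleic acids of the host.

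Levels are log2 expression values after the robust multi-array average (RMA), in which a difference of 1 is a doubling. Srgn, the gene for serglycin, stood at 5.07, 5.04 and 4.89 in SG-/- tumours, against 6.76, 6.43 and 6.35 in SG+/- tumours, in accord with the labels. Mammary epithelial markers were bright, with Epcam between 12.09 and 12.14 in SG-/- tumours and between 12.12 and 12.24 in SG+/- tumours. The arrays differed in their spread. The mean of 1394 olfactory and vomeronasal receptor genes, taken as silent here, was 4.57, 5.13 and 5.86 over SG-/- replicates 1 to 3, against 4.58, 5.62 and 5.49 over the SG+/- replicates. SG-/- replicate 3 thus had the highest floor, and its interquartile range, 2.56, was the smallest of the 6 arrays. Salivary gland markers differed between tumours and did not all move together. Bpifa2, a parotid secretory protein, was at 13.54, 7.26 and 13.64 in SG-/- replicates 1 to 3 and at most 6.47 in SG+/- tumours. Pip is a secretory protein of salivary and other glands. It was at 10.74, 9.81 and 10.92 in SG-/- tumours, against 6.63, 8.87 and 9.55 in SG+/- tumours. Muc19 and Bhlha15, chosen after their values were seen, differed by 0.09 and -0.09.

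Genes that answer to interferon often hold an interferon-stimulated response element near their start. The windows around the transcript starts of the sensors are shown for that reason. RefSeq windows on GRCm38.p6, 250 bases before to 50 bases after a start, were found for 6 of the 9 genes. The core GAAANNGAAA was searched on both strands, the reverse strand as TTTCNNTTTC. It was present in 4 of the 6 windows and in 3.44% of all 32851 windows of this length. The windows below are written 5′ to 3′ on the strand of the gene, with each match in capitals, and Mavs is shown as a window without a match.
Ddx58, chr4:40239776-40240075, minus strand: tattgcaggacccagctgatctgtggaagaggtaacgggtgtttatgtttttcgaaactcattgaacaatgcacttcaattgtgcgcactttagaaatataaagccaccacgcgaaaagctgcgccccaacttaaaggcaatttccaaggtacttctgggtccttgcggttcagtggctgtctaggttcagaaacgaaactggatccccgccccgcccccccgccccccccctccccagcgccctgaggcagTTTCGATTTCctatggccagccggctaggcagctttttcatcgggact
Ifih1, chr2:62646206-62646505, minus strand: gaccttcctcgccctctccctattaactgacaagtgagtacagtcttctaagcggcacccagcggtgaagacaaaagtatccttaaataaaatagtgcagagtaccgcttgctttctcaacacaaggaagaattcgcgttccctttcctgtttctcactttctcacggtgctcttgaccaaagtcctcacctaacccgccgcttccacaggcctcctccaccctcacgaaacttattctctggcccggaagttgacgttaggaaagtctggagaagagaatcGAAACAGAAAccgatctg
Ddx60, chr8:61927837-61928136, plus strand: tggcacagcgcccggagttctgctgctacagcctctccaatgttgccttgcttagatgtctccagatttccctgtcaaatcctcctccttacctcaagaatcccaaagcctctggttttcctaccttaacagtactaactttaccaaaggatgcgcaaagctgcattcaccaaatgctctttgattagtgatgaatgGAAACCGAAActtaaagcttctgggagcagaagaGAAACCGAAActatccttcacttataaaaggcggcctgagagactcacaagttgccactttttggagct
Eif2ak2, chr17:78882523-78882822, minus strand: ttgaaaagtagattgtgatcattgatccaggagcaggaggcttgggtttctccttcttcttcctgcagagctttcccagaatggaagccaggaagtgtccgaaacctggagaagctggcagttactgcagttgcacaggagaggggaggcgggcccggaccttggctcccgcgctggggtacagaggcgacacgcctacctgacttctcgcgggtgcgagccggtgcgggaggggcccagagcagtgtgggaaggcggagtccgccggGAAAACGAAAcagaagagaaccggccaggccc
Mavs, chr2:131233813-131234112, plus strand: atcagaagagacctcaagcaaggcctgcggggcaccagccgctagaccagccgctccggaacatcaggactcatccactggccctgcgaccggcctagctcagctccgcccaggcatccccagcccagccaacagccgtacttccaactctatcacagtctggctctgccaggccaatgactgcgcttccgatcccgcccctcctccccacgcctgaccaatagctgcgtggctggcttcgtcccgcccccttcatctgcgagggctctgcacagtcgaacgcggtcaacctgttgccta

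Ddx60 held 2 matches, at positions -53 to -44 and -19 to -10, counted from 1 at the first transcribed base and with no position 0. The match of Ddx58 lay at 3 to 12 on the reverse strand, that of Eif2ak2 at 19 to 28 and that of Ifih1 at 33 to 42. The windows of Mavs and Tlr3 held none, and the Tlr3 window lies around a transcript start 695 bases inside the annotated gene. A second pattern, the GAS element TTCNNNGAA, which reads the same on both strands, was found only in the Eif2ak2 window, at -178 to -170, and in 8.3% of all windows. It shares no base with the match of the first pattern in that window. A match describes the letters of a window and does not show that a factor binds there.

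Ddx60 differed most between the genotypes among the 9 genes. This interferon-induced helicase has been linked to RIG-I signalling. It stood at 9.15, 8.89 and 9.13 in SG-/- tumours, against 7.80, 8.30 and 8.26 in SG+/- tumours. Each SG-/- tumour lay above each SG+/- tumour, with 0.59 between the lowest SG-/- and the highest SG+/- value, which is more than the range within either genotype. SG-/- tumours averaged 9.05 ± 0.14, against 8.12 ± 0.28 for SG+/- tumours (SD over 3 tumours). The difference, SG-/- minus SG+/- as throughout, was 0.93 (standard error, SE, 0.18), or 1.91-fold (95% confidence interval 1.43 to 2.54). It ranked 14 of 22180 genes by its limma p, which was 0.00109 before and 1.00 after Benjamini-Hochberg adjustment over all genes. The exact two-sided permutation test gave p = 0.1, the smallest that 3 against 3 values allow. In whole tissue, more cells of a type and more RNA per cell cannot be told apart.

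The RIG-I-like receptors differed less than Ddx60. Ddx58, the sensor of RNA with triphosphate ends, was at 10.79, 10.73 and 10.69 in SG-/- tumours, against 10.32, 10.16 and 10.44 in SG+/- tumours. The groups did not overlap, and the SG-/- tumours lay within 0.10 of each other. SG-/- tumours averaged 10.74 ± 0.05 and SG+/- tumours 10.31 ± 0.14 (SD over 3 tumours). The difference was 0.43 (SE 0.13), a 1.34-fold higher level in SG-/- tumours. The limma p before adjustment was 0.0127, and the exact permutation p was 0.1. Ifih1, the sensor of long RNA duplexes, was at 10.39, 10.27 and 10.52 in SG-/- tumours, against 10.05, 10.12 and 10.17 in SG+/- tumours. Here too the groups did not overlap, but the gap between them, 0.10, was less than the range of 0.25 among SG-/- tumours. The difference was 0.28 (SE 0.13, 95% confidence interval -0.02 to 0.58), with an unadjusted limma p of 0.063 and an exact permutation p of 0.1.

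Dhx58 encodes LGP2, which lacks the signalling domains of the other two RIG-I-like receptors and modulates them. It was at 9.40, 9.07 and 9.23 in SG-/- tumours, against 8.93, 8.95 and 9.11 in SG+/- tumours. SG+/- replicate 3 lay above SG-/- replicate 2, so the groups overlapped. The difference was 0.24 (95% confidence interval -0.09 to 0.57), with an unadjusted limma p of 0.131 and an exact permutation p of 0.2. It was less than the range of 0.33 among SG-/- tumours and more than that of 0.18 among SG+/- tumours.

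Zbp1, the sensor of Z-form nucleic acids, was at 10.03, 9.89 and 9.81 in SG-/- tumours, against 9.40, 9.21 and 9.63 in SG+/- tumours. The groups did not overlap, and the gap was 0.17. SG-/- tumours averaged 9.91 ± 0.11 and SG+/- tumours 9.41 ± 0.21 (SD over 3 tumours). The difference was 0.50 (SE 0.15), or 1.41-fold (95% confidence interval 1.10 to 1.81), with an unadjusted limma p of 0.0138 and an exact permutation p of 0.1. Zbp1 and Ddx58 placed the 6 tumours in the same order, from SG-/- replicate 1 at the top to SG+/- replicate 2 at the bottom.

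**Figure D1:**
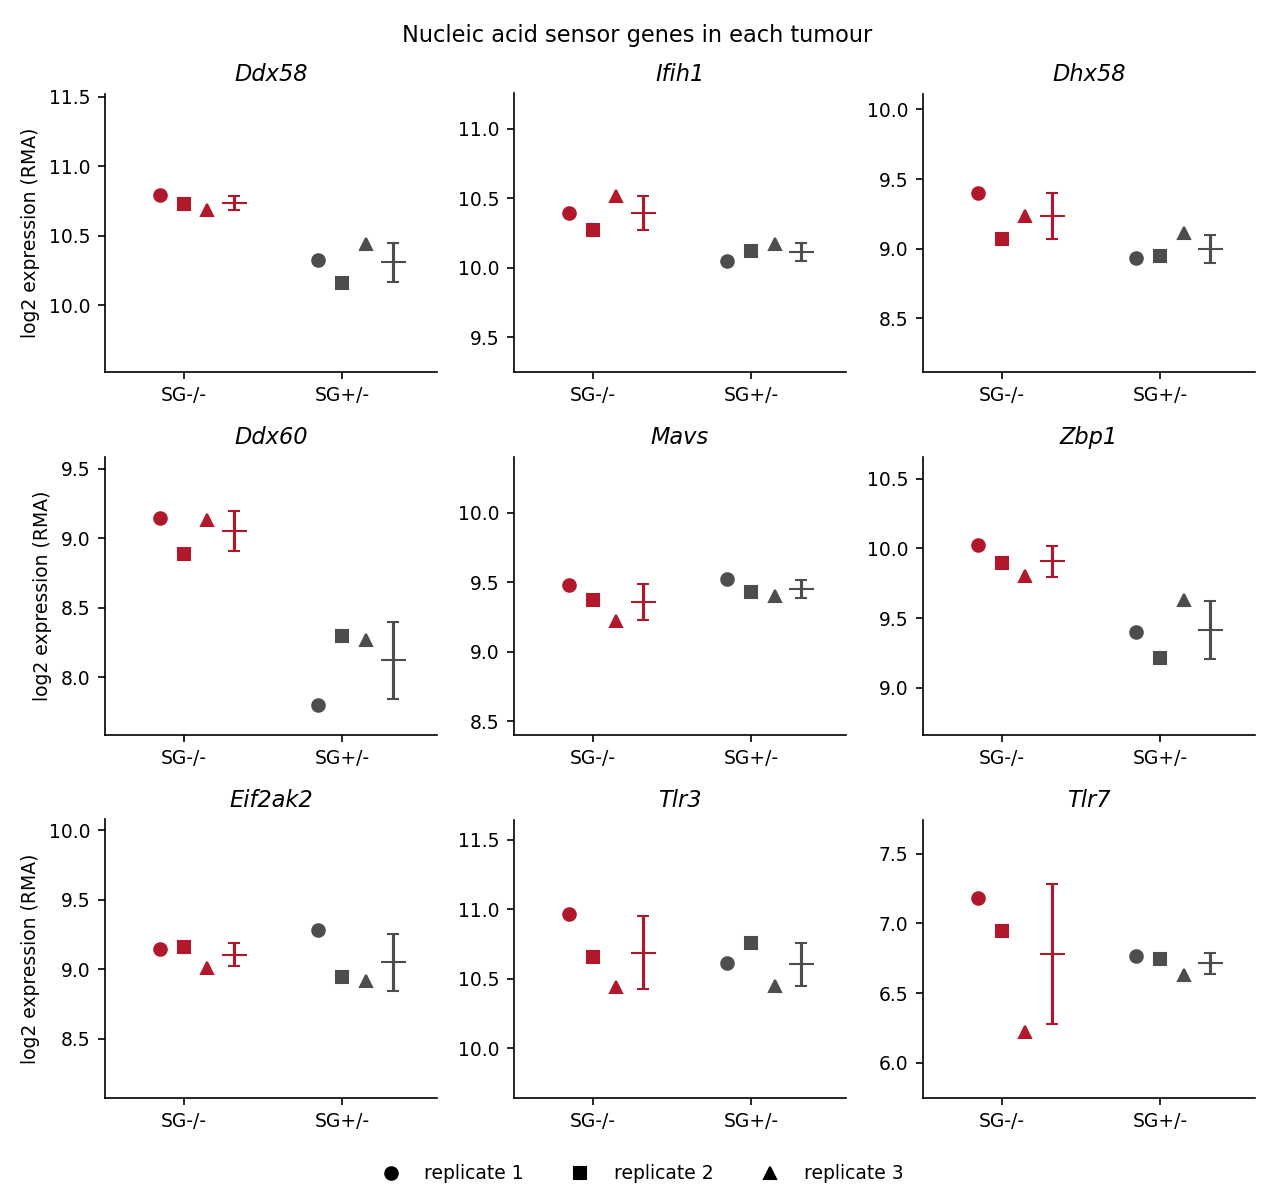
Log2 expression (RMA) of each sensor gene in every tumour, with SG-/- on the left and SG+/- on the right of each panel. Symbols mark replicates and bars the mean ± SD of 3 tumours; each panel spans 2 log2 units. For Ddx58, Ifih1, Ddx60 and Zbp1 the lowest SG-/- tumour lies above the highest SG+/- tumour, while Tlr7 spreads from 6.22 to 7.18 among SG-/- tumours.

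Mavs, the adaptor through which RIG-I and MDA5 signal, was not among the higher genes. It was at 9.48, 9.37 and 9.22 in SG-/- tumours, against 9.52, 9.43 and 9.40 in SG+/- tumours. The groups overlapped, and SG-/- replicate 3 was lowest. The difference was -0.09 (95% confidence interval -0.39 to 0.21, unadjusted limma p = 0.489, exact permutation p = 0.4). As a ratio of SG-/- to SG+/- tumours, the interval reaches from 0.76-fold to 1.15-fold.

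Eif2ak2, which encodes the kinase PKR, was at 9.14, 9.16 and 9.01 in SG-/- tumours, against 9.28, 8.95 and 8.92 in SG+/- tumours. All 3 SG-/- values lay inside the range of the SG+/- values. The difference was 0.06 (95% confidence interval -0.29 to 0.40, unadjusted limma p = 0.713, exact permutation p = 0.8). Its window above holds a match to the interferon response core, as do those of Ddx58, Ifih1 and Ddx60.

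Both Toll-like receptors varied more within SG-/- tumours than between genotypes. Tlr3, the endosomal sensor of RNA duplexes, was at 10.96, 10.66 and 10.44 in SG-/- tumours, against 10.61, 10.75 and 10.45 in SG+/- tumours. The highest and the lowest value both came from SG-/- tumours, and the difference was 0.08 (95% confidence interval -0.32 to 0.49, unadjusted limma p = 0.642, exact permutation p = 0.7). Tlr7, the endosomal sensor of single-stranded RNA, was at 7.18, 6.94 and 6.22 in SG-/- tumours, against 6.77, 6.74 and 6.63 in SG+/- tumours. SG-/- replicates 1 and 2 lay above all SG+/- tumours and SG-/- replicate 3 below them all. SG-/- tumours averaged 6.78 ± 0.50 and SG+/- tumours 6.71 ± 0.08 (SD over 3 tumours), a difference of 0.07 (95% confidence interval -0.52 to 0.65, unadjusted limma p = 0.793, exact permutation p = 0.8). Without SG-/- replicate 3 it was 0.35, with an unadjusted limma p of 0.0328 and an adjusted p of 0.872, and without SG-/- replicate 1 it was -0.13. The level in SG-/- replicate 3 was close to 6.09, the 40th percentile of all probe sets.

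Macrophages and plasmacytoid dendritic cells are known for Tlr7. Of 12 macrophage markers, 12 had a higher mean in SG-/- tumours, and their mean level was 8.63 to 9.49 in SG-/- tumours and 8.55 to 8.71 in SG+/- tumours. Adgre1, a surface receptor gene used to mark macrophages, was at 9.32, 8.84 and 8.49 in SG-/- replicates 1 to 3, the same order as Tlr7 in these tumours. The SG+/- tumours had 8.34, 8.46 and 8.25. All 6 plasmacytoid dendritic cell markers had a higher SG-/- mean, by a median of 0.20, and mean levels of 7.20 to 7.45 in SG-/- and 7.12 to 7.29 in SG+/- tumours. Siglech, the lectin that defines these cells, was at 6.50 to 6.56 in SG-/- tumours and 6.08 to 6.51 in SG+/- tumours. The part of these cells in the Tlr7 values was not tested.

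**Figure D2:**
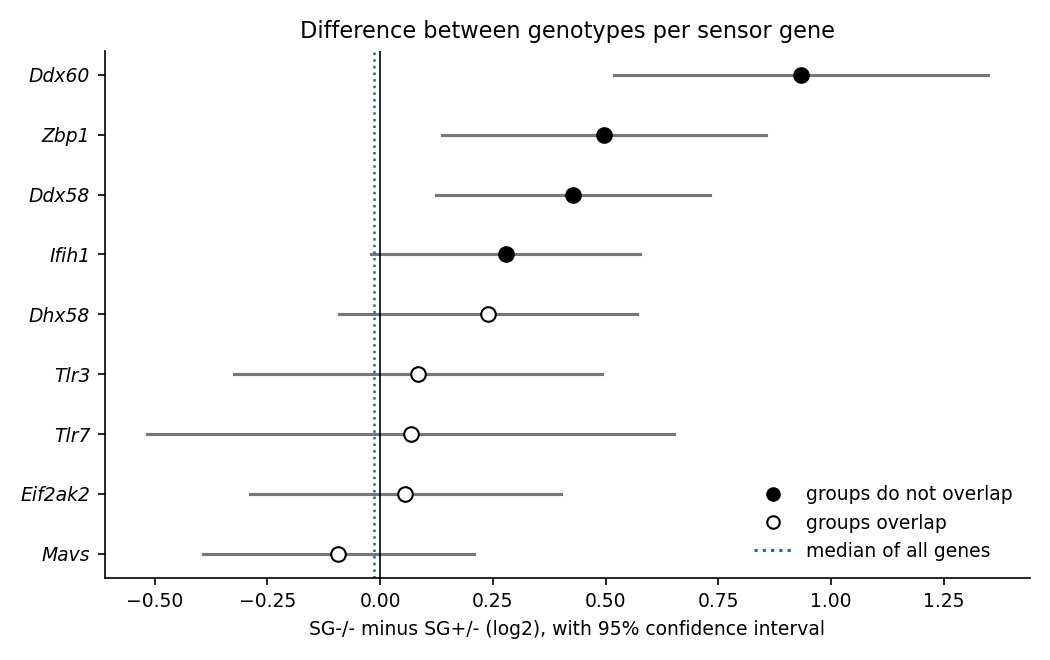
Difference between genotypes, SG-/- minus SG+/- on the log2 scale, for each sensor gene, with its 95% confidence interval from limma (3 tumours per genotype). Filled points are genes whose groups do not overlap, and the dotted line is the median of all genes, -0.01; the intervals of Ddx60, Zbp1 and Ddx58 lie above 0 before any adjustment.

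Over all genes, 0 of 22180 passed an adjusted limma p of 0.05 (0%), so none of the 9 sensors did, and each had an adjusted p of 1.00. At an unadjusted limma p under 0.05, 3 of the 9 were higher in SG-/- tumours, namely Ddx58, Ddx60 and Zbp1, and 0 were lower. Of all genes, 1.43% were higher by this rule and 0.685% lower, which is 469 genes. Without SG-/- replicate 3 there were 4 of the 9, Tlr7 being added, while 1200 of all genes passed, 3.91% higher and 1.5% lower. The number of all genes that passed was also 1038 with the receptor mean as a covariate and 2569 with array weights, so this background depends on the setting. In 4 of the 9 the groups did not overlap with SG-/- tumours above, against 2.84% of all genes. With SG-/- tumours below there were 0 of the 9. Of the 22180 genes, 708 were lower without overlap, more than the 630 that were higher. By the mean alone, 8 of the 9 were higher in SG-/- tumours, against 46.3% of all genes. The median difference of the 9 was 0.24 and that of all genes -0.01. Leaving out SG-/- replicate 3 gave 5 genes higher without overlap, Tlr7 being added, against 12.5% of all genes. Leaving out SG-/- replicate 1 gave 4, against 4.84%. In that last setting 1 sensor, Mavs, was lower without overlap, and the share of all genes lower in it was not counted. These shares are given as a background, since the 9 genes were chosen with results of these tumours known.

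The sensors did not move as a block across the tumours. In 5 of them, Ddx58, Ifih1, Dhx58, Ddx60 and Zbp1, all 3 SG-/- tumours lay above the SG+/- mean. SG-/- replicate 3 was the lowest SG-/- tumour for Mavs, Eif2ak2, Tlr3 and Tlr7, at -0.23, -0.04, -0.16 and -0.50 from the SG+/- mean. It was the lowest of them for Ddx58 and Zbp1 too, but lay 0.38 and 0.39 above the SG+/- mean there. For Ifih1 it was the highest of all 6 tumours, at 0.40 above that mean, and for Ddx60 it was 1.01 above. The median deviation of the 9 genes was 0.41, 0.16 and 0.24 in SG-/- replicates 1 to 3, against 0.01, -0.02 and 0.06 in the SG+/- replicates.

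**Figure D3:**
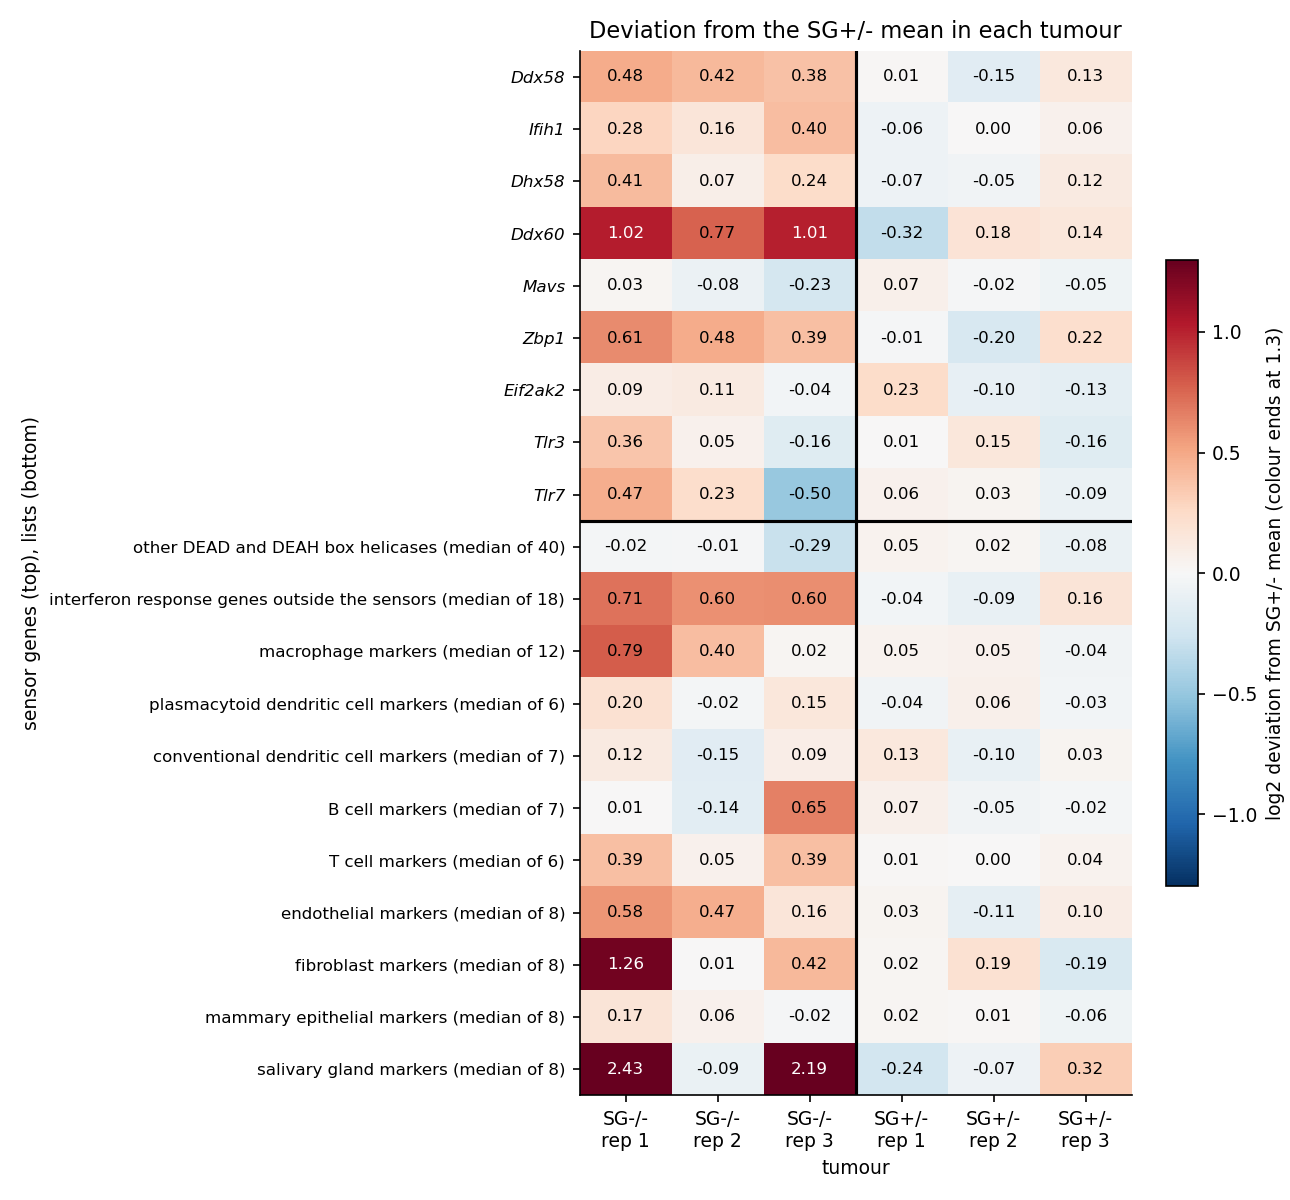
Deviation of each sensor gene from its SG+/- mean in each tumour (top), on the log2 scale, and the median deviation of other gene lists (bottom), with the number of measured genes in brackets; SG-/- tumours are on the left. Colours end at 1.3. Ddx60 deviates by 0.77 to 1.02 in all SG-/- tumours. Macrophage markers deviate by 0.79, 0.40 and 0.02 and salivary gland markers by 2.43, -0.09 and 2.19 in SG-/- replicates 1 to 3.

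Markers of other cells also differed between the tumours. Salivary gland markers had a median deviation of 2.43, -0.09 and 2.19 in SG-/- replicates 1 to 3, with 7 of 8 higher in SG-/- tumours by the mean. Their mean level was 7.70 to 9.93 in SG-/- tumours, against 6.90 to 7.82 in SG+/- tumours. Macrophage markers had a median deviation of 0.79, 0.40 and 0.02 in SG-/- replicates 1 to 3. By unadjusted limma p under 0.05, 2 of the 12 were higher, against 1.43% of all genes. Without SG-/- replicate 3 there were 10, against 3.91% of all genes, and 0 when any other mouse was left out. T cell markers, of which 5 of 6 were higher by the mean, had mean levels of 6.49 to 6.71 in SG-/- tumours, against 6.31 to 6.38 in SG+/- tumours. For B cell markers, of which 5 of 7 were higher, the mean levels were 5.56 to 6.52 in SG-/- tumours, against 5.67 to 5.75 in SG+/- tumours, and SG-/- replicate 3 was the high one. Fibroblast markers, of which 8 of 8 were higher, had 9.11 to 10.22 in SG-/- tumours, against 8.83 to 9.19 in SG+/- tumours. Endothelial markers, also 8 of 8 higher, had 7.84 to 8.27 in SG-/- tumours, against 7.57 to 7.78 in SG+/- tumours. Of the mammary epithelial markers 6 of 8 were higher, with 10.74 to 10.96 in SG-/- tumours, against 10.68 to 10.85 in SG+/- tumours. Conventional dendritic cells are known for Tlr3, and 5 of 7 of their markers were higher, with 6.95 to 7.19 in SG-/- tumours, against 6.93 to 7.10 in SG+/- tumours. Log2 array values have no true zero, so no marker can be called absent. The part of salivary tissue and of macrophages, T, B, dendritic, endothelial and fibroblast cells in the sensor values was not tested.

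The other helicases of the DEAD and DEAH box families mostly serve RNA metabolism. Of 40 measured, 36 had a lower SG-/- mean, with differences from -0.35 to 0.09 and a median of -0.10. None passed an unadjusted limma p of 0.05, and Ddx60 at 0.93, Ddx58 at 0.43, Ifih1 at 0.28 and Dhx58 at 0.24 lay above the highest of them. Ddx1, an RNA helicase of the nucleus and cytosol, averaged 10.98 ± 0.10 for SG-/- tumours, against 11.03 ± 0.03 for SG+/- tumours (SD over 3 tumours). Ddx56 and Dhx8, the members with the smallest p, differed by -0.35 and -0.29. The list median was -0.29 in SG-/- replicate 3 alone, against -0.02 and -0.01 in SG-/- replicates 1 and 2. These values are differences within each gene, and levels of different probe sets were not compared.

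Of 29 measured cofactors and signalling genes of the RIG-I-like receptors, 10 were higher and 19 lower by the mean in SG-/- tumours, and the median difference was -0.02. After adjustment 0 passed. At an unadjusted limma p under 0.05 there were 2 higher and 0 lower, against 1.43% and 0.685% of all genes. These 2 were Nlrc5, known as an activator of MHC class I genes and as a regulator of RIG-I signalling, and Irf7, the transcription factor that amplifies interferon production. Irf7 was at 10.83, 10.64 and 11.05 in SG-/- tumours, against 10.01, 10.18 and 10.55 in SG+/- tumours. Its groups did not overlap, and SG-/- tumours were 0.60 higher (SE 0.19). Nlrc5 was 0.64 higher (SE 0.19). With array weights 1 of the 29 was higher by unadjusted limma p under 0.05, against 6.75% of all genes. The count was also 1 with arrays centred on brighter genes and without SG+/- replicate 1, against 1.74% and 1.25% of all genes. Trim25, a ubiquitin ligase that activates RIG-I, differed by -0.06 (95% confidence interval -0.50 to 0.38).

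Among 22 measured cofactors and relatives of the endosomal receptors, 13 were higher and 9 lower by the mean in SG-/- tumours, and the median difference was 0.06. By unadjusted limma p under 0.05, 3 were higher and 0 lower, against 1.43% and 0.685% of all genes. The 3 were Ctss, Tlr9 and Tlr13, the last of which is named after its value was seen. Without SG-/- replicate 3, 5 were higher, against 3.91% of all genes. The count was 2 without SG+/- replicate 1, against 1.25% of all genes. It was 0 when any other mouse was left out, against 0.852% to 1.47%. Ctss, the lysosomal protease cathepsin S, was at 10.74, 10.71 and 10.57 in SG-/- tumours, against 10.40, 10.19 and 10.35 in SG+/- tumours. These groups did not overlap, and SG-/- tumours were 0.36 higher (SE 0.13). Tlr9, the endosomal sensor of unmethylated DNA, was 0.46 higher and Tlr13, which recognises bacterial ribosomal RNA in mice, 0.58 higher. Unc93b1, the chaperone that brings these receptors to endosomes, was 0.24 higher (95% confidence interval -0.16 to 0.63). Of 7 surface Toll-like receptors, 6 had a higher mean, with a median difference of 0.20, and Tlr1, which senses bacterial lipoproteins together with TLR2, was 0.51 higher (95% confidence interval 0.00 to 1.02).

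Of 22 measured genes of the cytosolic DNA sensing list, 12 were higher and 10 lower by the mean, with a median of 0.03. By unadjusted limma p under 0.05 there were 2 higher and 0 lower, against 1.43% and 0.685% of all genes. Without SG-/- replicate 3 there were 4 higher, against 3.91% of all genes. The count was 1 without SG+/- replicate 3, against 0.852% of all genes. It was 2 when any other mouse was left out, against 0.906% to 1.47%. Aim2, which assembles an inflammasome on DNA, was at 6.87, 6.78 and 6.86 in SG-/- tumours, against 6.25, 6.49 and 6.39 in SG+/- tumours. The groups did not overlap and SG-/- tumours were 0.46 higher (SE 0.12). Ifi204, an interferon-inducible relative of Aim2, was at 8.12, 7.24 and 6.94 in SG-/- tumours, against 6.47, 6.72 and 6.49 in SG+/- tumours. It belongs to a family of similar genes whose probes were not checked against each other. Mb21d1, which encodes cGAS, the enzyme that makes the messenger for STING, was 0.24 higher (95% confidence interval -0.10 to 0.58), at levels of 5.54 to 6.07 that all lie under 6.09, the 40th percentile of probe sets.

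The genes listed around PKR and ZBP1, which include regulators as well as targets, were not among those with a small p. Of 16 measured genes of the PKR and eIF2alpha stress response 12 were lower by the mean, with a median of -0.11, and 0 passed an unadjusted limma p of 0.05. Trib3, a pseudokinase gene induced by this stress response, differed by -0.30 (95% confidence interval -0.69 to 0.08), and Tarbp2, an RNA-binding inhibitor of PKR, by -0.19. Of 7 measured genes listed as partners of ZBP1 in cell death, Adar among them, 5 were higher by the mean, with a median of 0.10. Ripk3, the kinase that ZBP1 engages, differed by 0.10 (95% confidence interval -0.48 to 0.67), and Mlkl, the executor of necroptosis, by 0.34 (95% confidence interval -0.22 to 0.89).

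**Figure D4:**
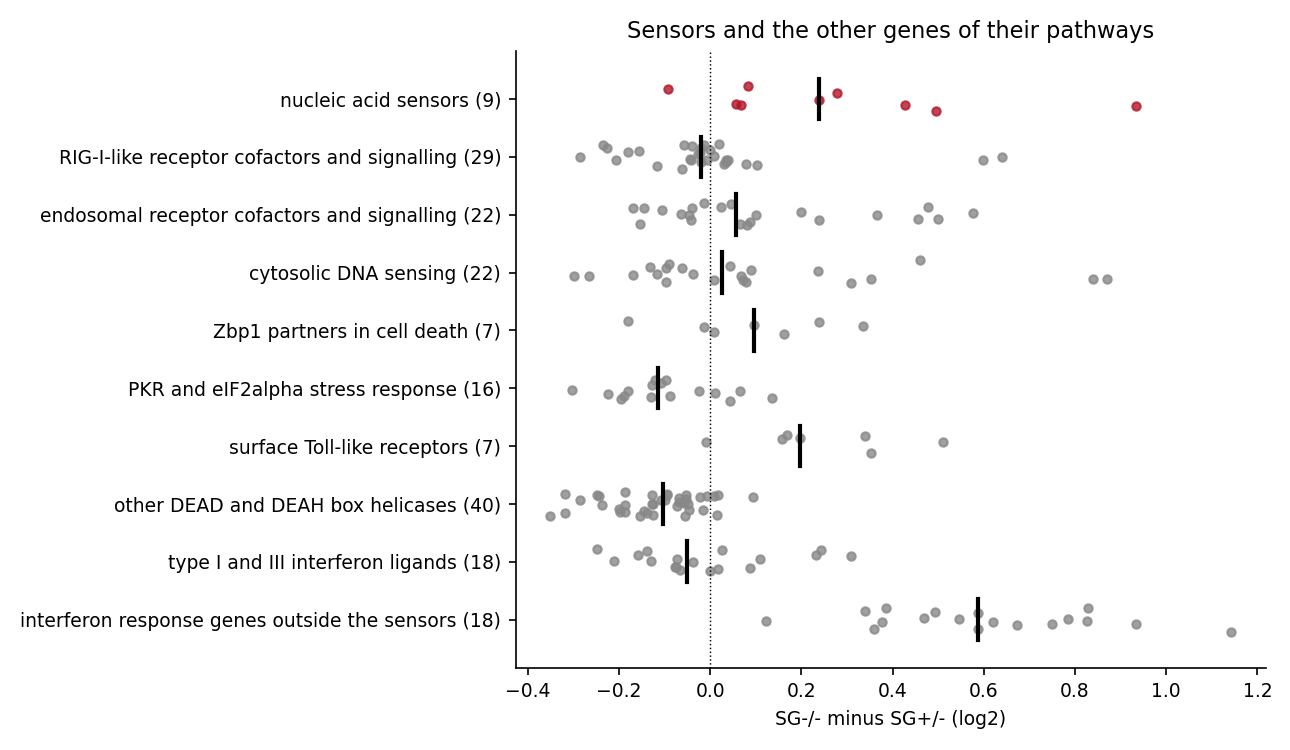
Difference between genotypes, SG-/- minus SG+/- on the log2 scale, for every measured gene of each list; a point is 1 gene, a black bar the list median, and the number of genes stands in brackets. The sensors (top) spread from -0.09 to 0.93, the other DEAD and DEAH box helicases from -0.35 to 0.09, and the interferon response genes from 0.12 to 1.14.

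No interferon gene had a small p in the main fit, but many of them were faint. Of 18 measured genes for type I and III interferons, 8 were higher and 10 lower by the mean, with a median difference of -0.05, and 0 passed an unadjusted limma p of 0.05. By that p, 1 was higher and 3 lower with array weights, against 6.75% and 4.83% of all genes. Without SG-/- replicate 3, 1 was lower, against 1.5% of all genes. After a repeated quantile normalization 1 was lower, against 1.07% of all genes. Only 9 of the 18 had a mean of at least 6.09, the 40th percentile of probe sets. The list median deviated by -0.20, -0.12 and 0.30 in SG-/- replicates 1 to 3, the order of their receptor means. The part of the array floor in these values was not tested. Ifnb1, the interferon beta gene, was at 4.16, 4.12 and 4.84 in SG-/- tumours, against 4.03, 4.38 and 4.67 in SG+/- tumours. Each of these values lies under the mean of the receptor genes taken as silent in the same array, so a change may not be resolved. Ifna12, an interferon alpha gene, averaged 6.18 ± 0.0091 for SG-/- tumours, against 6.39 ± 0.0072 for SG+/- tumours (SD over 3 tumours), a difference of -0.21 without overlap. The relatives of Ifna12 are similar in sequence, and the probes were not checked against them. Of the interferon response genes outside the sensors, 18 of 18 measured were higher by the mean, against 46.3% of all genes. The list had a median difference of 0.59. Of its genes, 14 were higher by unadjusted limma p under 0.05, against 1.43% of all genes. The median deviation of the list was 0.71, 0.60 and 0.60 in SG-/- replicates 1 to 3. These response genes were listed with earlier results of the same tumours known, and 0 passed after adjustment. Ddx60, at 0.93, lay in the upper part of their range, while Eif2ak2, at 0.06, lay below their lowest value of 0.12.

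The genes outside the set whose pattern over the 6 tumours was most like the mean of the 9 sensors were Pcdhb15, Pla2g2d, Cbx2, Fap and Gm5886, with Pearson correlations of 0.997, 0.993, 0.990, 0.990 and 0.989. The values describe likeness over 6 arrays that share normalization and genotype, and among 22180 genes high values are to be found without any relation. Fap, a protease of activated fibroblasts, averaged 7.70 ± 0.26 for SG-/- tumours, against 7.11 ± 0.07 for SG+/- tumours (SD over 3 tumours). Cbx2 had a difference between genotypes of 0.06 and Gm5886 of 2.66, so like patterns came with very unlike sizes.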

How the data were processed

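RNA from snap-frozen tumours was extracted with Trizol, labelled with a whole-transcript kit and hybridised, 1 array per mouse, per the labels' protocols. The authors deposited log2 expression values for 33793 probe sets, made with the robust multi-array average per the series description. Affymetrix Expression Console, RMA and limma are listed, with no versions, in the submitters' processing notes. No genome build is given there.

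Of the probe sets, 23521 had 1 symbol in the platform annotation, 1814 several and 8458 none. Per gene the probe set with the highest mean was kept, which left 22180 genes. SG-/- minus SG+/- was fitted over all of them in limma 3.58.1 (lmFit, then eBayes; R 4.3.3), two-sided, with Benjamini-Hochberg adjustment and a threshold of 0.05. The code was tested on simulated data. Single genes also had an exact permutation test in scipy 1.17.1. Precision is limited by the number of arrays, 3 for each genotype. No value was missing.

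The members and the 19 lists (285 entries, 258 measured) were chosen with earlier results of these data known. The rule for named genes takes all members, Srgn, the first gene of each list and its 2 with the smallest p, and the 5 genes most like the mean of the members; others are marked as chosen after their values were seen. RefSeq GRCm38.p6 gave names and promoter windows. The 14 alternatives covered probe set choice, dim genes, normalization, variance model, array weights, the receptor mean as a covariate, and each mouse left out.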

Additional observations from a re-analysis of the deposited data

How the results depend on the processing

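No sensor passed an adjusted limma p of 0.05 under any of the 14 alternatives, and 0 did at an adjusted p of 0.1. At an unadjusted p under 0.01 there was 1 (Ddx60) and under 0.05 there were 3. Over the alternatives that last count was 3 or 4, while 1.47% to 11.6% of all genes passed. Ddx58, Ddx60 and Zbp1 passed in all 14 and Ifih1 in 2. Their differences ran from 0.35 to 0.49 for Ddx58, 0.76 to 1.02 for Ddx60, 0.39 to 0.60 for Zbp1 and 0.16 to 0.34 for Ifih1. Dhx58 ran from 0.09 to 0.32, the lowest value with array weights. The median of the 9 was 0.15 to 0.32 with 1 mouse left out, and 4 or 5 genes were higher in SG-/- tumours without overlap. The share of all genes higher without overlap was then 4.84% to 12.5%, against 2.84% with all tumours. The sign of small differences turned. Tlr7 was -0.018 after a repeated quantile normalization and ran from -0.13 to 0.35 with 1 mouse left out, Tlr3 from -0.054 to 0.21 and Eif2ak2 from -0.0089 to 0.17. Of the 94 other pathway genes, 7 had an unadjusted limma p under 0.05, against 2.11% of all genes. That count was 12 with array weights, but 11.6% of all genes passed there. Adjusting for the receptor mean gave 11, against 4.68% of all genes. It was 12 without SG-/- replicate 3, against 5.41%. With any other mouse left out it was 3 to 5, against 1.47% to 2.19%. The cause of these shifts was not tested. No paired analysis was made because the labels used here give nothing that pairs the mice. Faint probe sets such as those of Ifnb1 and Mb21d1 limit what the arrays resolve.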

Other observations

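Tlr8 and Tlr13, chosen after their values were seen as the measured receptors nearest to Tlr7 in function, were also highest in SG-/- replicate 1. Tlr8, an endosomal relative of Tlr7, was at 7.65, 6.98 and 6.71 in SG-/- replicates 1 to 3, against 6.70, 6.68 and 6.45 in SG+/- replicates 1 to 3. Tlr13 was at 7.97, 7.51 and 7.03 in SG-/- replicates 1 to 3, against 7.09, 6.78 and 6.91 in SG+/- replicates 1 to 3. In Tlr8 the lowest SG-/- tumour lay just above the highest SG+/- tumour, and in Tlr13 the groups overlapped. The macrophage marker Fcgr1, an Fc receptor, was likewise highest in SG-/- replicate 1 and, among SG-/- tumours, lowest in replicate 3. It averaged 8.02 ± 0.50 for SG-/- tumours and 7.37 ± 0.05 for SG+/- tumours (SD over 3 tumours). Whether macrophage content moves these receptors was not tested.

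Adar, which edits RNA duplexes and so keeps host RNA from MDA5, and Tmem173, which encodes STING, were likewise picked after their values were seen. Adar was at 9.35, 9.24 and 9.28 in SG-/- tumours, against 9.21, 8.97 and 9.20 in SG+/- tumours, a difference of 0.16 (95% confidence interval -0.14 to 0.46) with no overlap between the groups. Tmem173 differed by 0.01 (95% confidence interval -0.40 to 0.41).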
